A study of Rattus norvegicus with 6 samples.

Results

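The endoplasmic reticulum folds secreted and membrane proteins with the help of chaperones such as BiP (Hspa5), of disulfide isomerases such as Pdia3 and Pdia4, and of the lectin chaperones calreticulin (Calr) and calnexin (Canx). When unfolded proteins build up, the membrane sensors ATF6, IRE1 and PERK raise the transcription of these chaperones and of genes for disposal of misfolded proteins, a programme called the unfolded protein response. Dopamine neurons are among the cells in which this response has been studied in models of Parkinson disease. The genes asked for here were Hspa5, Pdia3, Pdia4, Calr, Canx and Hsp90b1, which are chaperones or isomerases, and Xbp1, Herpud1 and Ddit3, which are not chaperones but a transcription factor, a membrane protein of misfolded protein disposal and the stress factor CHOP. A probe counted as a member when its RefSeq accession belonged to 1 of these 9 genes. This gave 8 probes for 7 genes, out of 33849 probes on the array, of which 4675 could be named for 4013 genes. Hsp90b1 and Xbp1 had no probe by this rule. Pdia4 had 2 probes and the other genes 1 each.

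The 6 animals were male Sprague Dawley rats, 5 months old. Through a minipump under the skin, 3 rats (numbers 16, 13 and 9) were given the pesticide rotenone, which blocks complex I of mitochondrial respiration, at a daily 0.5 mg/kg over 28 days. The other 3 rats (numbers 11, 7 and 1) carried the same pump, filled with the vehicle of dimethylsulfoxide, polyethylene glycol and a surfactant. RNA of the laser-captured substantia nigra pars compacta, the midbrain region of the dopamine neurons, was hybridised to 1 one-colour array per rat, so a value is a mean over all cell types of the capture. The series set out to measure how the pesticide affects gene expression; the comparison here asks whether genes of the unfolded protein response changed.

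The share of probes above background ran from 44.2% to 51.5% by array. Tests covered the 16708 probes that reached it on 3 arrays or more. The array of rotenone rat 16 stood apart, with the lowest share above background and an average r to the other 5 of 0.931, against 0.956 to 0.964 for those arrays. All 6 dopamine neuron markers looked at (Th, Slc6a3, Slc18a2, Ddc, Nr4a2 and Pitx3) were tested, and 4 of them were above background on each array. Pitx3 was above it on no rotenone array and on 3 solvent arrays. The array of solvent rat 7 carried a header date that the other 5 did not share, and what this date records is not stated.

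None of the measured genes of the unfolded protein response passed the test, in either direction. Of the 8 member probes, 5 could be tested, 1 each of Hspa5, Pdia3, Pdia4, Calr and Ddit3, and 0 of the 5 passed (limma, adjusted p under 0.05). Over all tested probes 0% passed, with a smallest adjusted p of 0.895. Of the 5, Hspa5, Pdia3 and Ddit3 had lower means with rotenone, and Calr and Pdia4 had means within 0.16 log2 units above solvent. At an unadjusted p below 0.05 there was 1 of the 5, Pdia3, while 4.94% of all tested probes (825) were below that value. On the normalized log2 scale, none of the 5 had rotenone values separate from the solvent values. Such separation was found for 9.97% of all tested probes. An exact permutation test on groups of 3 gives a p of 0.1 at the lowest. In captured tissue, fewer cells of a type and less RNA per cell cannot be told apart.

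The main control element of the chaperone genes is a short promoter motif, the endoplasmic reticulum stress element (ERSE), to which NF-Y and ATF6 bind; it is shown here because it links most of the members. The motif was searched as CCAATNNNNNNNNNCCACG on both strands, in windows from 250 bases before to 50 bases after the RefSeq start of each gene (GRCr8). Of 33469 windows, 22 held it (0.0657%), and 5 of the 8 members with a window did: Hspa5, Calr, Canx, Hsp90b1 and Xbp1. Pdia3 had no window in the table. The related motif ERSE-II, searched as ATTGGNCCACG, was in 17 windows (0.0508%), among them that of Herpud1. Every ERSE and ERSE-II also contains CCACG, which alone was in 31.6% of windows and in all 8 member windows. The letters TGACGTGG, a core bound by XBP1 and ATF6 (0.595% of windows), and TGATGNAAT, a C/EBP-ATF composite element (1.09%), were in none of the member windows. The stretches below run 5′ to 3′ on the gene's own strand, with the fixed letters of the motif in capitals. Those of Hspa5 and Calr belong to tested probes, and those of Canx and Herpud1 to probes near background.
Hspa5: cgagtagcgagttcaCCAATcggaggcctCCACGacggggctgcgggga
Calr: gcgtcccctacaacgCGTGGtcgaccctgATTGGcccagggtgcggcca
Canx: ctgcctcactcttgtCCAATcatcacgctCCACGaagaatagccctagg
Herpud1: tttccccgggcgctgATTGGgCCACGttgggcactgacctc

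The Hspa5 stretch lies at chr3:38452958-38453006 on the plus strand, and its motif begins 43 bases before the start of the gene (first base at -43). In Calr (chr19:40213120-40213168, plus strand) the motif is on the opposite strand and begins at -232. The Canx stretch (chr10:35158054-35158102, minus strand) has its motif at -230. The ERSE-II of Herpud1 (chr19:10614806-10614846, minus strand) begins at -124. A match of letters is a description of the sequence and does not show that a factor binds there. Sequence outside the windows was not searched, so a missing match does not show that a gene lacks an element.

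Hspa5 encodes BiP, the main Hsp70 chaperone of the endoplasmic reticulum, whose rise is the classic sign of the unfolded protein response. Its probe GE19667 had a net signal (spot mean minus local background) of 92.5, 266 and 194 in rotenone rats 16, 13 and 9, against 297, 299.8 and 269 in solvent rats 11, 7 and 1. The 3 rotenone values were below the lowest solvent value on this linear scale, and rat 16 was far below the other two. After normalization between arrays the log2 intensities were 7.47, 8.30 and 7.99 with rotenone and 8.45, 8.38 and 8.22 with solvent, so that rotenone rat 13 lay above solvent rat 1. The means were 7.92 ± 0.42 with rotenone and 8.35 ± 0.12 with solvent (SD, n = 3 each), a difference of -0.43 with a 95% interval from -0.91 to 0.05 and an adjusted p of 0.895 in limma. Without rotenone rat 16 the difference was -0.21.

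Pdia3, also called ERp57, is the disulfide isomerase that works on glycoproteins held by calreticulin and calnexin. The net signal of its probe GE20496 was 213, 422 and 626 in rotenone rats 16, 13 and 9, against 577, 829 and 735 in solvent rats 11, 7 and 1. Rats 16 and 13 were below all solvent rats and rat 9 was within their range. The log2 means were 8.87 ± 0.57 with rotenone and 9.52 ± 0.19 with solvent (SD, n = 3 each). The difference of -0.64 had a 95% interval from -1.23 to -0.06, with an unadjusted p of 0.0346 and an adjusted p of 0.895 in limma. This was the largest difference among the 5 tested probes. Without rotenone rat 16 it was -0.35, and without rotenone rat 9 it was -0.92. When arrays were weighted by how well they fitted, which gave rat 16 a weight of 0.394 against 0.918 to 1.74 for the others, it was -0.41.

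Pdia4, or ERp72, is another disulfide isomerase of the same compartment and a target of the unfolded protein response. Its 2 probes carry the same accession and disagreed on detection. GE1269057 was above background on all 6 arrays, with net signals of 16.2, 57.1 and 58.9 in rotenone rats 16, 13 and 9, against 42.4, 55.5 and 43.6 in solvent rats 11, 7 and 1. Rat 16 was the lowest of the 6, while rats 13 and 9 were the highest. The log2 means were 6.64 ± 0.31 with rotenone and 6.62 ± 0.09 with solvent (SD, n = 3 each), and the difference was 0.02 with a 95% interval from -0.40 to 0.44. Its sign changed with the rat left out, reaching -0.09 when rotenone rat 9 was dropped and 0.20 when rat 16 was, and was negative at -0.03 both with median scaling and with plain background subtraction. The second probe, GE21856, was not well above background on any array, with net signals from 1.86 to 13.1 with rotenone and from 5.86 to 10.0 with solvent, so that no fold is given for it.

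**Figure D1:**
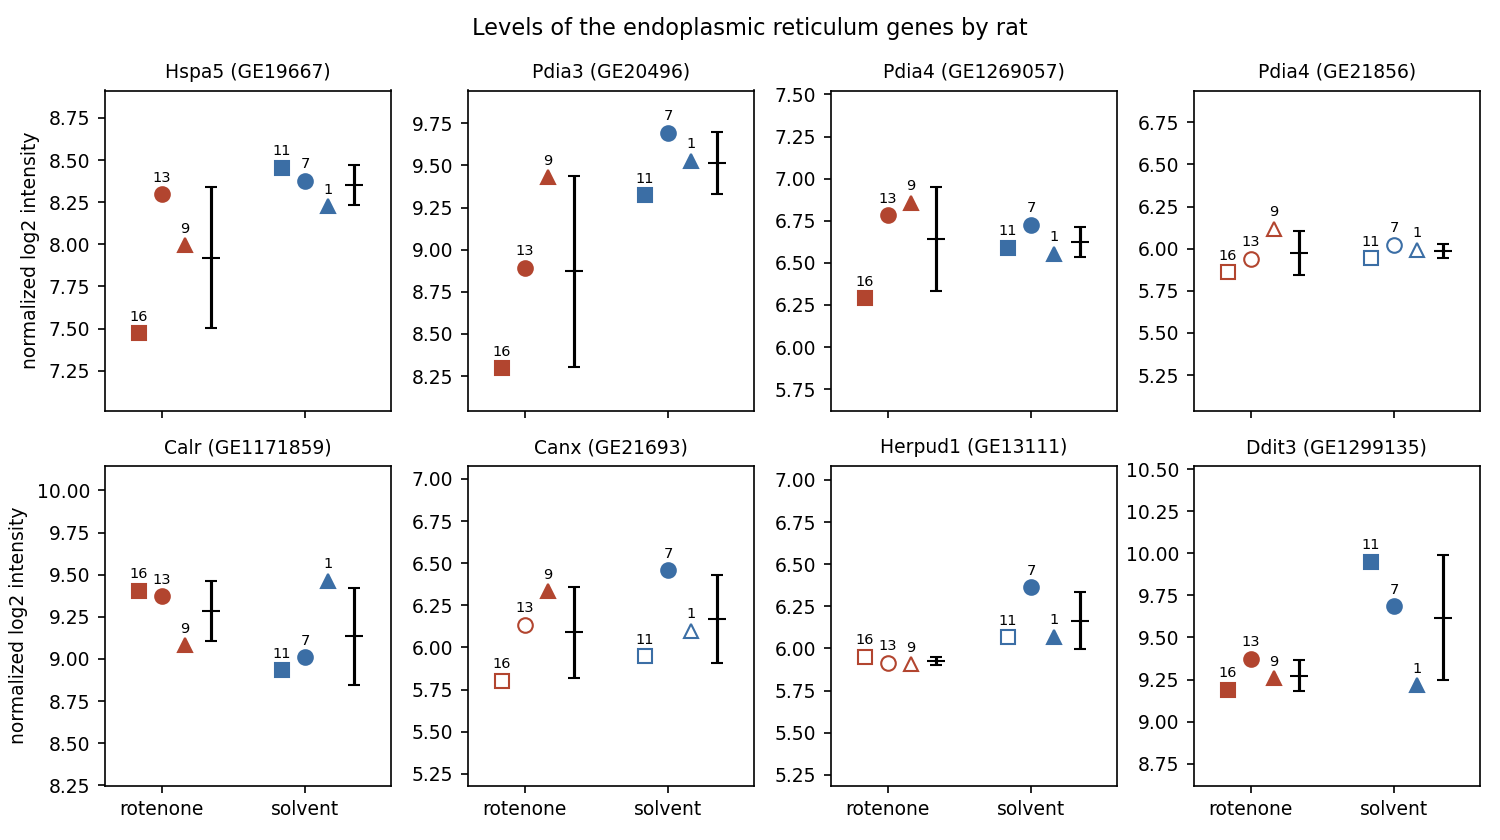
Normalized log2 intensity (vertical axis, the same span of 1.9 units in each panel) of the 8 member probes in the rotenone rats (red, left) and the solvent rats (blue, right), each point 1 rat with its number; filled points were above background and open points were not, and the black bars give the mean and SD of 3 rats. Hspa5 and Pdia3 show rotenone rat 16 at 7.47 and 8.30, below the other 5 rats, while Pdia4 (GE21856), Canx and Herpud1 lie near background.

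Calr and Canx are the lectin chaperones of the calnexin cycle, one soluble and one bound to the membrane, and Calr also stores calcium. The Calr probe GE1171859 had net signals of 555, 602 and 473 in rotenone rats 16, 13 and 9, against 429, 495 and 701 in solvent rats 11, 7 and 1. The highest and the lowest of the 6 values were both from solvent rats. The log2 means were 9.29 ± 0.18 with rotenone and 9.13 ± 0.29 with solvent (SD, n = 3 each), a difference of 0.15 with a 95% interval from -0.28 to 0.58 and an adjusted p of 0.918 in limma. The difference was 0.32 without solvent rat 1, 0.05 without solvent rat 11, 0.09 without rotenone rat 16 and 0.06 with median scaling. Calr was the only tested member for which rat 16 was not the lowest rotenone value, since there it was the highest of the 3 rotenone rats on the log2 scale, at 9.41.

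The Canx probe GE21693 was above background on 1 rotenone array (rat 9) and 1 solvent array (rat 7), too few for the test. Its net signals were -0.400, 14.75 and 23.5 in rotenone rats 16, 13 and 9, against 6.08, 35.8 and 14.4 in solvent rats 11, 7 and 1. The groups overlapped, and the values say only that calnexin mRNA was not measured well by this probe.

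Herpud1 encodes a membrane protein that helps to pass misfolded proteins to degradation and is normally strongly induced by the unfolded protein response. Its probe GE13111 was not well above background on any rotenone array, with net signals of 5.47, 4.62 and 4.13, and was above background on 2 of 3 solvent arrays, with 11.2 in solvent rat 11, 29.9 in rat 7 and 12.5 in rat 1. The 3 rotenone values were all below the 3 solvent values. Of the tested probes, which did not include this one, 9.97% had groups separate in either direction. The normalized means were 5.92 ± 0.02 with rotenone and 6.17 ± 0.17 with solvent (SD, n = 3 each). The rotenone level is known only as an upper bound. Each rotenone array was therefore given the lowest value of any probe above background, or its own if higher. This gave a solvent mean 1.12-fold higher, a rough lower bound on the means that leaves out the spread among rats. This bound rests on solvent rat 7, at 6.36 against 6.07 in both other solvent rats, of which rat 11 was not above background. Without rat 7 it was 1.04-fold.

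Ddit3 encodes CHOP, a transcription factor raised by ATF4 in lasting endoplasmic reticulum stress and tied to cell death. The probe GE1299135 was bright on all 6 arrays. Its net signals were 459, 602.5 and 544 in rotenone rats 16, 13 and 9, against 913, 824 and 589 in solvent rats 11, 7 and 1. Solvent rat 1 lay among the rotenone rats, and solvent rats 11 and 7 lay above all of them. The log2 means were 9.27 ± 0.09 with rotenone and 9.62 ± 0.37 with solvent (SD, n = 3 each), and the difference of -0.34 had a 95% interval from -0.80 to 0.11 and an adjusted p of 0.895 in limma. It was -0.54 without solvent rat 1 and -0.18 without solvent rat 11, so the single solvent rats set its size.

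**Figure D2:**
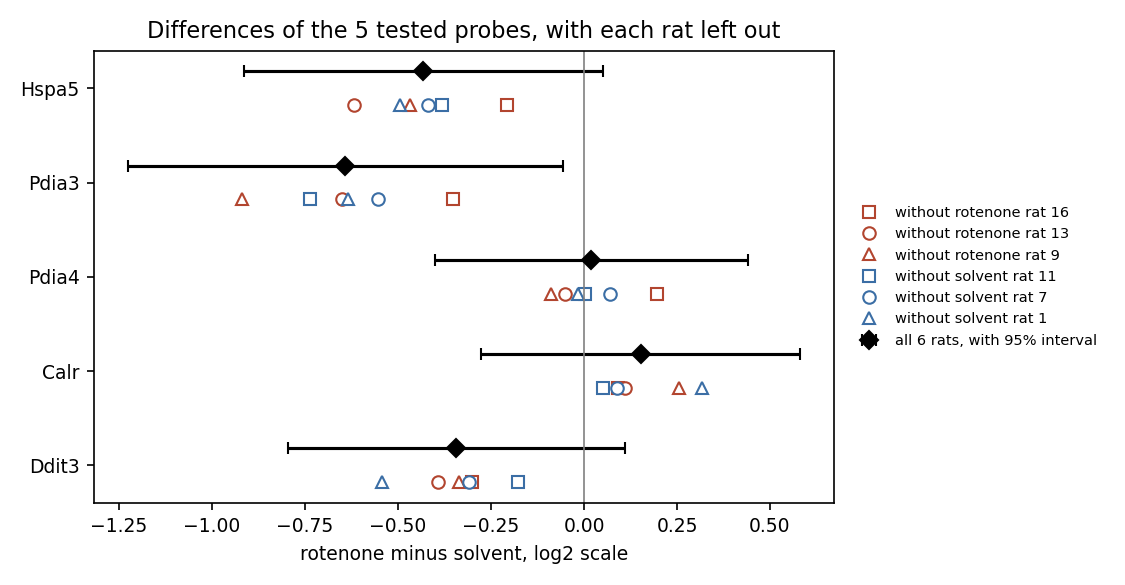
Rotenone minus solvent on the log2 scale (horizontal axis) for the 5 tested probes; black diamonds with bars give the estimate from all 6 rats with its 95% interval, and open symbols give the estimate with 1 rat left out (red for a rotenone rat, blue for a solvent rat). Without rotenone rat 16, Hspa5 stood at -0.21 and Pdia3 at -0.35, and the estimates for Pdia4 lay on both sides of 0.

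The members did not move as 1 block. In rotenone rat 16 the deviations from the solvent mean were -1.22 for Pdia3, -0.88 for Hspa5, -0.43 for Ddit3 and -0.33 for Pdia4, but 0.27 for Calr. In rat 13 Pdia3 stood at -0.62 with Hspa5 near the solvent mean at -0.06, and in rat 9 Hspa5 stood at -0.36 with Pdia3 at -0.09. Hence the pair differed in which of rats 13 and 9 was closer to solvent. Over the 6 arrays the correlation of Hspa5 with Pdia3 was 0.76, and -0.05 over the 5 arrays without rat 16. That of Calr with Ddit3 was -0.81, and -0.77 without rat 16. Over so few arrays, which share 1 normalization, these values only describe the pattern.

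**Figure D3:**
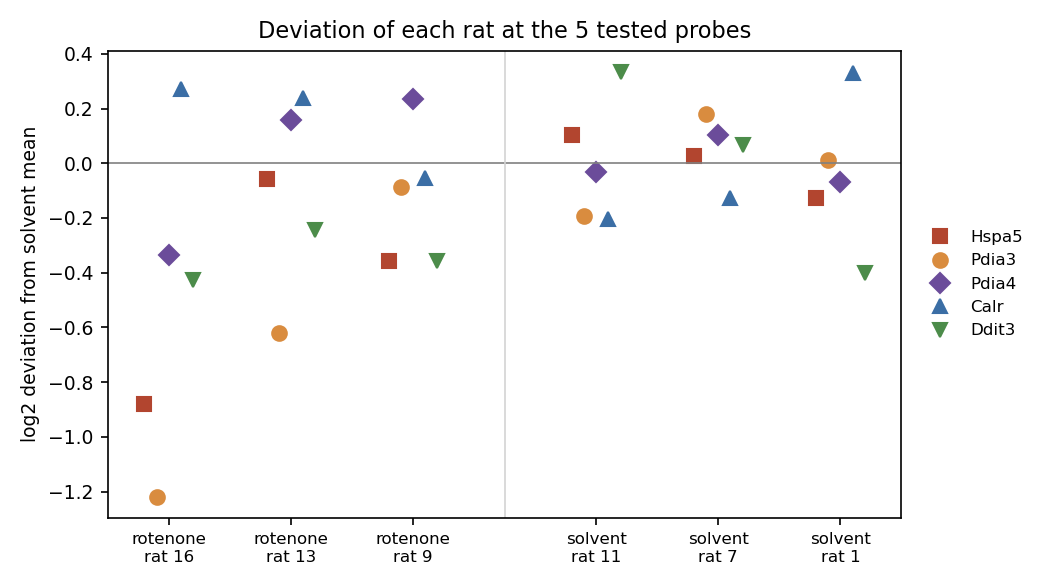
Log2 deviation of each rat from the mean of the 3 solvent rats (vertical axis) at the 5 tested probes, with the rotenone rats left and the solvent rats right. Rat 16 is low for Pdia3 (-1.22) and Hspa5 (-0.88) and above 0 for Calr (0.27); the solvent rats lie between -0.40 and 0.33.

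The spread among rats also differed by gene. The SD over the rotenone rats was over 3 times that over the solvent rats for Hspa5, Pdia3 and the tested Pdia4 probe, at 0.42, 0.57 and 0.31 with rotenone against 0.12, 0.19 and 0.09 with solvent. For Calr (0.18 with rotenone, 0.29 with solvent) and Ddit3 (0.09 with rotenone, 0.37 with solvent) it was smaller with rotenone. Rat 16 made up part of this larger spread. Over rats 13 and 9 alone the SD was 0.21 for Hspa5, 0.38 for Pdia3 and 0.05 for Pdia4. The values of Hspa5 and Pdia3 were thus still above their solvent SD, and only that of Pdia4 was below it. Over all tested probes the rotenone SD was the larger one in 58.5%. With 3 values behind each SD, and only 2 behind those of rats 13 and 9 alone, these are descriptions.

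The genes whose profile over the 6 arrays was most like that of a member, among 1254 other named genes, were Ipo13, an importin of nuclear transport, for Hspa5 (r = 0.993) and Rpl3, a ribosomal protein of the large subunit, for Pdia3 (r = 0.992). For Calr it was the collagen gene Col5a3 (r = 0.974), for Ddit3 the translation inhibitor Pdcd4 (r = 0.971) and for Pdia4 the kinase gene Araf (r = 0.956). Without rat 16 these values lay between 0.948 and 0.972 for the same pairs. Each pair was picked as the highest r among the 1254 genes over 6 arrays. High values follow from such a choice, with or without rat 16, and do not show that the genes are regulated together. For Hspa5, 122 of the 1254 genes had an r above 0.9, against 7 to 29 for the other members, so its profile, with rat 16 lowest, was shared by many genes.

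Other genes of the pathway were taken from lists of the compartment's functions. Of 171 further genes of the endoplasmic reticulum, in 8 lists, 62 had a named probe and 47 were tested. None of the 47 passed the adjusted test in limma. For 1 of the 47, Mbtps1, the unadjusted p was below 0.05, as it was for 4.94% of all tested probes. Lower means with rotenone were found in 32 and higher means in 15, with a median difference of -0.09. Of the 47, 38 were above background on all 6 arrays, and 25 of these 38 were lower. Of all 12468 probes above background on all arrays, 45.6% were lower. Over all tested probes 48.3% were lower and the median difference was 0.01. These probes include unnamed ones, and the share among named genes alone was not worked out. With the medians of the arrays equalised in place of quantile normalization, 37 of the 47 were lower, as were 61.9% of all probes. Without rotenone rat 16, 26 of the 47 were lower with a median of -0.03, against 49.5% of all probes. The median deviation of the 47 genes was -0.25 in rat 16, 0.03 in rat 13 and -0.07 in rat 9.

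Among the sensors and transcription factors, 4 of 6 tested genes were lower in mean, with a median of -0.02. Eif2ak3, which encodes the sensor PERK, differed by 0.15 ± 0.18 (SE). Atf4, the transcription factor made more when PERK slows translation, stood at 8.28, 9.69 and 9.33 in rotenone rats 16, 13 and 9, against 9.84, 9.74 and 9.39 in solvent rats 11, 7 and 1. Rat 16 was the low one, rats 13 and 9 were close to the solvent rats, and the difference was -0.55 ± 0.32. Mbtps1, the protease that frees the active part of ATF6, was above background on 1 rotenone array and 3 solvent arrays, so it was tested through the solvent group and its rotenone level is mostly unmeasured. It stood at 5.90, 6.48 and 6.02 with rotenone against 6.90, 6.54 and 6.59 with solvent, without overlap, and its adjusted p was 0.895 in limma. Groups were separate for 9.97% of all tested probes.

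Of the targets of PERK and ATF4, 6 were tested, with 4 lower and 2 higher in mean and a median of -0.09. Asns, which makes asparagine, differed by -0.13 (second probe -0.25) and the stress factor Atf3 by -0.12. Ppp1r15a (GADD34), which ends the translational block, differed by 0.11. Ddit3 belongs to this branch by its regulation, at -0.34.

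Other chaperones and co-chaperones were lower in mean in 6 of 6 tested genes, with a median of -0.15, and none passed the test. Of all tested probes, 48.3% were lower. They included Hspa13, an Hsp70-like protein of the same compartment, at -0.28 and Dnajc3, a co-chaperone of BiP, at -0.24, with its second probe at -0.42. The median deviation of these 6 genes was -0.33, -0.12 and -0.06 in rotenone rats 16, 13 and 9, against -0.18, 0.10 and 0.12 in solvent rats 11, 7 and 1, so that solvent rat 11 lay below rats 13 and 9. Dnajb9, a BiP co-chaperone induced by XBP1, differed by -0.09 ± 0.30 (SE).

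Disulfide isomerases and oxidases had 5 lower and 2 higher in mean (median -0.10), with Vkorc1, the vitamin K epoxide reductase, at -0.42 ± 0.21 (SE) and the peroxiredoxin Prdx4 at -0.42 ± 0.32. The oxidase Ero1a, which passes disulfides to the isomerases, differed by -0.06. In glycoprotein folding and quality control 7 were lower and 2 higher (median -0.20), led by the calcium-binding protein gene Sdf4 at -0.42 and Rpn2, a subunit of the oligosaccharyltransferase, at -0.33. The remaining lists were small or balanced. Vcp, the ATPase that extracts proteins for degradation and the only tested gene of that list, differed by -0.30. Of 4 translocation genes 2 were lower, with Ssr4 at -0.29 and the signal peptidase gene Sec11c at 0.11 (second probe -0.25). Genes of reticulum calcium and of cell death under stress had 3 lower and 5 higher (median 0.02), with the protease gene Capn1 at 0.23. The death effector Bax, at -0.27, was above background on 1 rotenone array and 3 solvent arrays, so that its rotenone level is mostly unmeasured as well. The adjusted p of every gene in these lists was 0.895 or higher.

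**Figure D4:**
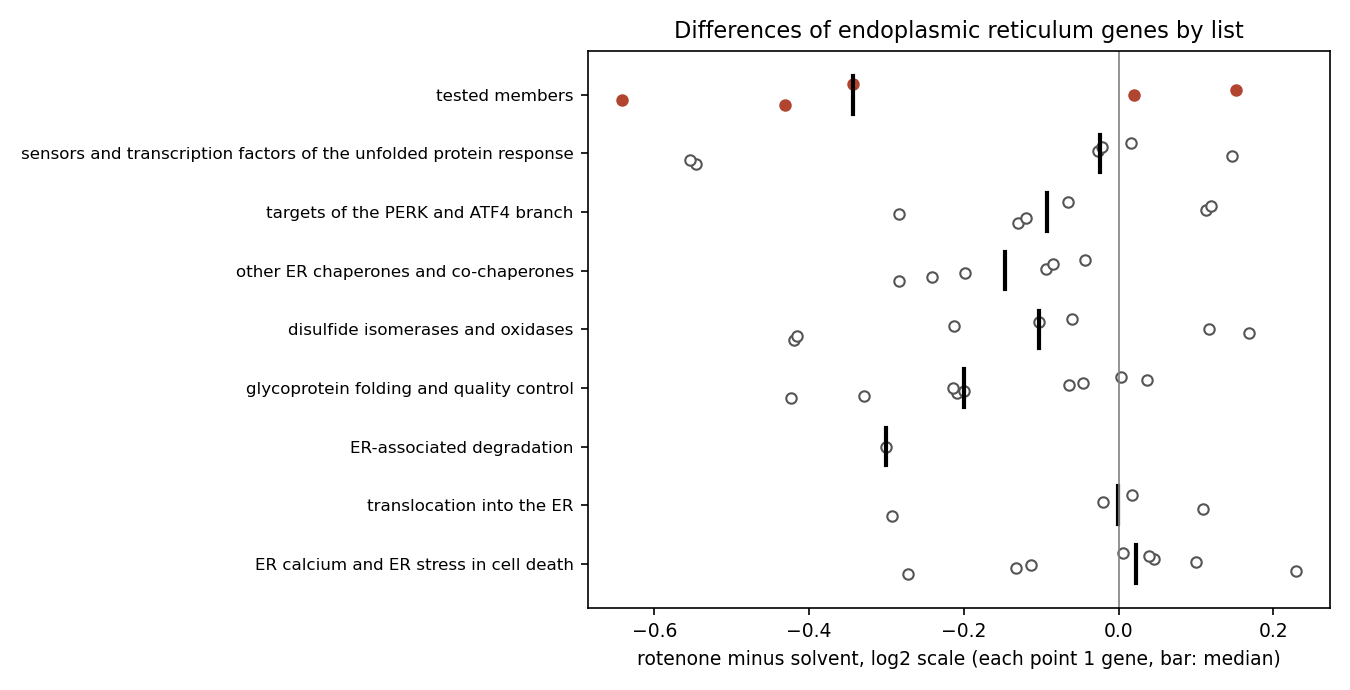
Rotenone minus solvent on the log2 scale (horizontal axis), with each point 1 tested gene and the bar the median of its row; the top row holds the 5 tested members and the rows below hold the 47 other genes by list. The differences of the 47 genes run from -0.55 (Atf4) to 0.23 (Capn1), and the members from -0.64 to 0.15.

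The genes with an ERSE or ERSE-II in the promoter window were looked at as well, chosen by sequence and not by the rule for named genes. A match of letters alone does not make a gene a target of the unfolded protein response. Of 38 such genes, 6 were members and 32 were not, and of these 32 genes 4 were tested on the array. Dnajc3 differed by -0.24, the kinase gene Prkcz by -0.46, the calcium-binding nucleobindin gene Nucb1 by -0.04 and Birc5, an inhibitor of cell death, by 0.30. With Hspa5 at -0.43 and Calr at 0.15, 4 of the 6 tested genes were lower in mean and 2 higher, and none passed the adjusted test in limma.

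General neuron markers were also lowest in rat 16 in summed level. All 7 tested general neuron markers of 12 listed were lower in mean with rotenone, against 48.3% of all tested probes. None of the 7 passed the adjusted test, and 6 of the 7 were above background on each array. An unadjusted p below 0.05 in limma was found for 3 of them, and for 4.94% of all tested probes. Their summed level was 11.9, 12.3 and 12.6 on the log2 scale in rotenone rats 16, 13 and 9, against 12.9, 12.7 and 12.7 in solvent rats 11, 7 and 1, with no overlap. The brightest genes, Gap43 and Ina, carry this sum. Taken singly, Gap43 and Syn2 did not overlap between the groups, while Ina, Stmn2, Syn1, Nefl and Nefm did. Over all tested probes 9.97% had groups without overlap. Syn1 was above background on 1 rotenone array and 3 solvent arrays, so it was tested through the solvent group. GABA neuron markers had a summed level of 10.7 to 11.1 in both groups, with 3 of 4 tested genes lower and a median difference of -0.04. The lowest of these 4, Gad2 at -0.41, was above background on 1 rotenone array and 2 solvent arrays. Oligodendrocyte markers had a summed level of 12.1 to 12.4 with rotenone and 12.2 to 12.7 with solvent (4 of 6 tested genes lower), and astrocyte markers 13.5 to 13.7 with rotenone and 13.3 to 13.5 with solvent (2 of 6 lower). Dopamine neuron markers had a summed level of 14.2 to 14.7 in both groups, which the brightest genes, Th and Ddc, carry. Of the 6, 4 were lower in mean and 2 (Th at 0.12 and Ddc at 0.07) higher, with a median of -0.18. Among these 4, Pitx3 was above background only on the 3 solvent arrays. It was thus tested through the solvent group, and its rotenone level is unmeasured. The lower ones included Nr4a2, at -0.79 and above background on 2 of 3 rotenone arrays, and Slc18a2, at -0.54. Their part in the lower means of Hspa5 and Pdia3 was not tested. Among the 5 arrays that share a header date, which leaves out solvent rat 7, the differences were -0.42 for Hspa5, -0.55 for Pdia3, 0.07 for Pdia4, 0.09 for Calr and -0.31 for Ddit3.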

How the data were processed

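Per the labels' protocols, RNA (2 µg per rat) was amplified by in vitro transcription and labelled with biotin. The deposited scanner files give spot and background intensity on a linear scale, and the authors' scaled intensity is the net signal divided by 1 number per array. The sources used here name no software. Probes were named through RefSeq accessions without version (GRCr8 table, used for names).

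Background was corrected with normexp (offset 50), which draws differences towards 0. After removal of control spots the log2 intensities were brought to common quantiles. Rotenone and solvent were compared by limma (version 3.58.1, in R 4.3.3) in a two-sided moderated test, and p-values were adjusted by Benjamini-Hochberg across every tested probe. A probe was tested if the scanner marked it neither near background nor masked on at least 3 arrays. Every spot was kept, because the irregular mark covers nearly all bright spots. Each array is 1 rat, so precision rests on how many arrays there are. The fit was also run on simulated data with independent noise at each probe, unlike an array that deviates at many probes. No result given here rests on that run.

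The members, lists and rules were chosen with earlier results of these data known. Named genes were all members and, per list, the 2 genes with the smallest p, read from the probe with the highest mean. A few others (Eif2ak3, Ppp1r15a, Dnajb9, Ero1a, the single marker genes and the genes with promoter motifs) were added after their values were seen. Pathway genes without a named probe were not analysed here. Promoter sequences are from RefSeq (GRCr8), and 8 of 9 members matched.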

Additional observations from a re-analysis of the deposited data

How the results depend on the processing

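No tested member probe and no pathway gene passed the adjusted test in any of the settings in which it was tested. The difference of Calr kept its direction in each setting that gave one, and those of Hspa5, Pdia3 and Ddit3 did so except in the value table as deposited. That table holds the values of solvent rat 7 beside the wrong probes (0.898% equal to the scanner file, within 1e-06), and it gave 2.51 for Calr, 1.53 for Pdia3, 1.41 for Ddit3, 0.55 for Hspa5 and -0.052 for Pdia4, 1 of 5 probes lower and 31.9% of pathway genes lower. The difference of Pdia4, near 0, was also negative with plain subtraction (-0.027), median scaling (-0.029), rat 7 put back in probe order (-0.061) and the spot median in place of the mean (-0.13, a setting chosen after seeing the data), and ranged from -0.088 to 0.20 with a rat left out. Over all probes the count of calls was 2 of 3910 with marked spots left out, 1 with the spot median, and 0 to 3 with a rat left out (3 without solvent rat 1). Leaving out marked spots left no member probe to test. Dim signal limits Canx, Herpud1 and 1 probe of Pdia4, and the spread of 3 rats limits the others.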
